A study of Mus musculus with 6 samples.

Results

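The genes described are the matrix metalloproteinases (MMP), the ADAM proteins (a disintegrin and metalloproteinase) and the ADAMTS proteins (ADAMs with thrombospondin motifs, including the ADAMTS-like proteins) of the mouse. All non-control probes whose gene name fell in one of these families by its symbol were taken, with no measured value used, which gave 111 probes of 55681 and 79 genes of 36499. They comprised 23 MMP, 32 ADAM and 24 ADAMTS genes. RNA was measured on 1-colour Agilent arrays in primary myoblasts, the cells from which muscle fibres form, sorted by flow cytometry and grown in DMEM with serum. The TGFb group held 3 arrays of cells given TGFb, a secreted factor known for driving fibrosis, for 4 days, and the untreated group held 3 arrays of cells cultured without it. Both groups came from skeletal muscle of male C57BL/6 mice aged 3 months, with no genetic change stated in the labels. The question was what 4 days of TGFb did to the transcripts of these proteases.

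All 3 families are zinc-dependent enzymes of one superfamily that cut proteins outside the cell or at its surface. MMPs cut collagens and other matrix proteins, are made as inactive precursors and are held in check by the TIMP inhibitors. ADAMs are membrane proteins, several of which release growth factors, cytokines and receptors from the cell surface, and some of which have lost the catalytic site. ADAMTS enzymes are secreted into the matrix and cut proteoglycans, procollagens and other matrix proteins, while ADAMTS-like proteins share their ancillary domains but lack the protease domain.

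Levels are given as log2 processed signal relative to the 75th percentile of the same array, so that 0 is the level of that percentile and the number of arrays limits the precision. That percentile lay between 879 and 1578 intensity units, and 52.0% to 56.7% of spots were well above background on each array. The arrays were scanned on 2 days, with TGFb replicate 1 and untreated replicates 1 and 2 on day 1 and the other arrays on day 2. Across genes, the correlation was 0.970 to 0.977 between TGFb and untreated arrays of one scan day, and 0.919 to 0.929 within a group between days. Untreated replicates 1 and 2 correlated at 0.996, and their scanner files carry the same number, so whether they are separate cultures is not settled. The differences are therefore also given from a second fit that adds scan day as a term (the scan-day fit). The main protease results are also given with both of these replicates averaged as 1 sample. Of 9 myoblast markers, 8 were well above background on all 6 arrays, among them Pax7, Myod1 and Des, while Myf5 was above it on 1 array. The summed level of the myoblast markers was 211 to 360 times the percentile in TGFb cells and 316 to 538 in untreated cells. That of 7 markers of differentiated muscle was 388 to 720 in TGFb cells and 752 to 1022 in untreated cells. Singly, these 7 differed unequally (TGFb minus untreated, log2). Tnnc2, Myh4 and Casq1 differed by -3.06, -4.59 and -4.01, and Ckm by -1.55. Mybpc2, not well above background on any TGFb array, differed by -3.05. The bright Myog and Myh3 differed by -0.46 and 0.02. Of 8 fibroblast markers, 5 (Pdgfra, Ly6a, Cd34, Thy1 and Pi16) were above background on all 6 arrays and Lum and Dpt on none, and the list summed to 2.85 to 5.28 in TGFb cells and 2.28 to 3.72 in untreated cells. Cd34 was the brightest of them on every array and differed by 0.87. Thy1, Ly6a and Pdgfra differed by -1.47, -1.22 and -0.07, and Pi16 and Tcf21 by 0.34 and 0.73. Of 6 endothelial markers, Pecam1 and Kdr were above background on all 6 arrays and Tek, Tie1 and Emcn on none. Of 7 leukocyte markers, Csf1r and Itgam were above it on all 6 and Cd68, Fcgr1 and Lyz2 on none. The endothelial markers summed to 0.429 to 2.93 in TGFb cells and 0.330 to 3.16 in untreated cells. The leukocyte markers summed to 16.2 to 117 in TGFb cells and 16.1 to 66.3 in untreated cells, and Itgam was the brightest of them on every array. In a bulk sample, fewer cells of a type and less RNA per cell cannot be told apart, and the part of the lower muscle markers in the results below was not tested.

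Of the 79 protease genes, 42 had a probe well above background on 3 or more of the 6 arrays and were tested, and 35 of these were above it on all 6. With group as the only term, 3 protease genes rose after TGFb and 3 fell (limma, Benjamini-Hochberg adjusted over 21960 genes, threshold 0.05). Among all genes tested, 0.697% rose, 0.706% fell and 1.40% changed in either direction. All 6 protease genes were in the ADAMTS family, where 6 of 17 tested genes passed, against 0 of 17 ADAM and 0 of 8 MMP genes. Of these 6, Adamts16 and Adamts20 were tested through the arrays of a single group, as no array of the other group was well above background. Without adjustment, limma gave p under 0.05 for 11 of the 42 genes, 1 MMP, 2 ADAM and 8 ADAMTS genes, and for 11.5% of all genes. The median difference, TGFb minus untreated, was 0.21 on the log2 scale over the 42 genes and 0.05 over all genes. It was 0.26 for MMP, 0.22 for ADAM and 0.11 for ADAMTS genes, while the median size of the difference regardless of sign was 0.28, 0.54 and 0.70 in these families and 0.45 over all genes. In the scan-day fit, the median size of the difference between days was 0.49 for MMP, 1.01 for ADAM and 0.30 for ADAMTS genes. It was 0.78 over all genes, and a day difference widens the spread in the fit with group alone. Whether the families differed from each other was not tested.

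**Figure D1:**
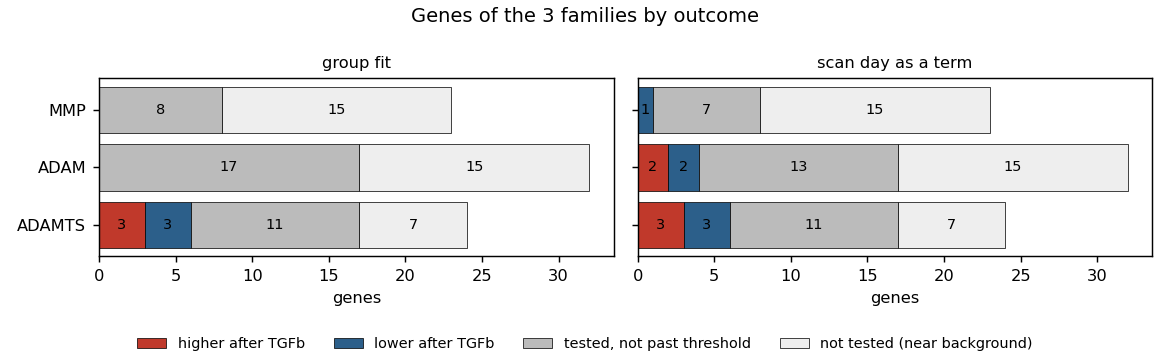
Number of genes of each family (horizontal axis) that were higher after TGFb, lower after TGFb, tested without passing the threshold, or not tested because no probe was above background on enough arrays. The left panel is the fit with group alone, where the called genes are 3 higher and 3 lower ADAMTS genes, and the right panel is the scan-day fit, where 1 MMP and 4 ADAM genes join them.

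In the scan-day fit, 5 protease genes rose and 6 fell, the 5 including Adam24, which was not well above background on any day 1 array, while 4.60% of all genes rose, 5.61% fell and 10.2% changed in either direction. These 11 genes were the 6 above plus Mmp15, Adam15, Adam19, Adam23 and Adam24, so that the families held 1 of 8 MMP, 4 of 17 ADAM and 6 of 17 ADAMTS genes. The TGFb arrays all lay above the untreated arrays for 8 of the 42 genes and all below them for 5, against 8.33% and 9.49% of all genes. Within each scan day taken alone, 33 of the 42 genes (78.6%) had the same sign of difference, against 67.9% of all genes.

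Among the ADAMTS genes that rose, Adamts16 encodes a secreted protease close to ADAMTS18. Its level was -1.95, -1.24 and -1.21 in TGFb cells, against -6.35, -7.69 and -7.82 in untreated cells. The groups were far apart, and the probe was not well above background on any untreated array. TGFb cells averaged -1.47 ± 0.42 and untreated cells -7.29 ± 0.82 (SD, n = 3 each). On the scale of the processed signal, the gene was at least 17.1-fold higher after TGFb. This bound was set by the lowest signal well above background on each untreated array and was not itself tested. The limma test (adjusted p = 0.0135) was of the measured difference of 5.82, which used the untreated values as they were. The gene met the filter through its TGFb arrays alone. The untreated values of Adamts16, not well above background, gave measured differences of 5.07 within day 1 and 6.59 within day 2. The gene passed in the scan-day fit (adjusted p = 0.00413). Its difference was smaller under other treatments of dim signals, at 2.57 after normexp background correction and 2.43 in the authors' deposited table. Both values are below the bound, which holds for the processed signal alone. A second Adamts16 probe was below background on all 6 arrays.

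Adamts6, a secreted protease closely related to ADAMTS10 and tied to fibrillin microfibrils, also rose. Its level was -2.11, -2.12 and -2.14 in TGFb cells, against -4.64, -4.86 and -5.02 in untreated cells. TGFb replicates were almost equal, and the lowest of them lay far above the highest untreated array. The untreated values were close to the lowest signal well above background on those arrays (-5.27, -5.75 and -5.67). The difference was 2.72 ± 0.24 (SE, adjusted p = 0.0150), 2.64 within day 1 and 2.89 within day 2. It was 1.40 after normexp correction, where the gene no longer passed (adjusted p = 0.0504), and 1.28 in the authors' deposited table.

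Adamtsl3, an ADAMTS-like glycoprotein of the matrix also called punctin-2, rose as well. Its level was -2.21, -1.58 and -1.57 in TGFb cells, against -4.79, -4.63 and -4.91 in untreated cells. TGFb replicate 1 was the lowest of its group and still lay well above every untreated array. As for Adamts6, the untreated values were close to the lowest signal well above background on those arrays. The difference was 2.99 ± 0.29 (SE, adjusted p = 0.0150), or 2.50 within day 1 and 3.34 within day 2. It was 1.81 after normexp correction and 1.69 in the authors' deposited table.

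The ADAMTS genes that fell included both members of the group related to GON-1 of Caenorhabditis elegans. Adamts20, which cuts the proteoglycan versican and is mutated in belted mice, fell to a signal not well above background. Its level was -6.78, -7.50 and -7.13 in TGFb cells, against -3.22, -3.23 and -3.34 in untreated cells. The groups did not overlap, and no TGFb array was well above background. TGFb cells averaged -7.14 ± 0.36 and untreated cells -3.26 ± 0.07 (SD, n = 3 each). On the scale of the processed signal, the gene was at least 4.04-fold lower after TGFb, a bound that was not itself tested. The limma test (adjusted p = 0.0108) was of the measured difference of -3.87, which used the TGFb values as they were. The gene met the filter through its untreated arrays alone. Its TGFb values, not well above background, gave measured differences of -3.56 within day 1 and -3.97 within day 2, and -1.29 after normexp correction, where it did not pass (adjusted p = 0.0652). In the authors' deposited table it was -1.30. The falls after normexp correction and in that table are smaller than the bound, which holds for the processed signal alone.

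Adamts9, the other protease of that group and also a versican-cutting enzyme, had a level of -3.37, -3.42 and -3.26 in TGFb cells, against -0.59, -0.54 and -0.81 in untreated cells. All TGFb arrays were closely grouped far below the untreated arrays, and the probe was above background on all 6. The fall was -2.70 ± 0.24 (SE, adjusted p = 0.0150), or -2.80 within day 1 and -2.53 within day 2.

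Adamtsl1, or punctin, is like Adamtsl3 a matrix glycoprotein without a protease domain, and it moved in the opposite direction. Its level was -3.22, -3.65 and -3.82 in TGFb cells, against -1.78, -1.52 and -1.74 in untreated cells. No TGFb array reached the lowest untreated array. The fall was -1.88 ± 0.28 (SE, adjusted p = 0.0388), -1.57 within day 1 and -1.99 within day 2. After normexp correction it was -1.30, where it did not pass (adjusted p = 0.0652). The other 2 Adamtsl1 probes were above background on at most 1 array. Adamts6, Adamts9, Adamts20 and Adamtsl3 each had a single probe.

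**Figure D2:**
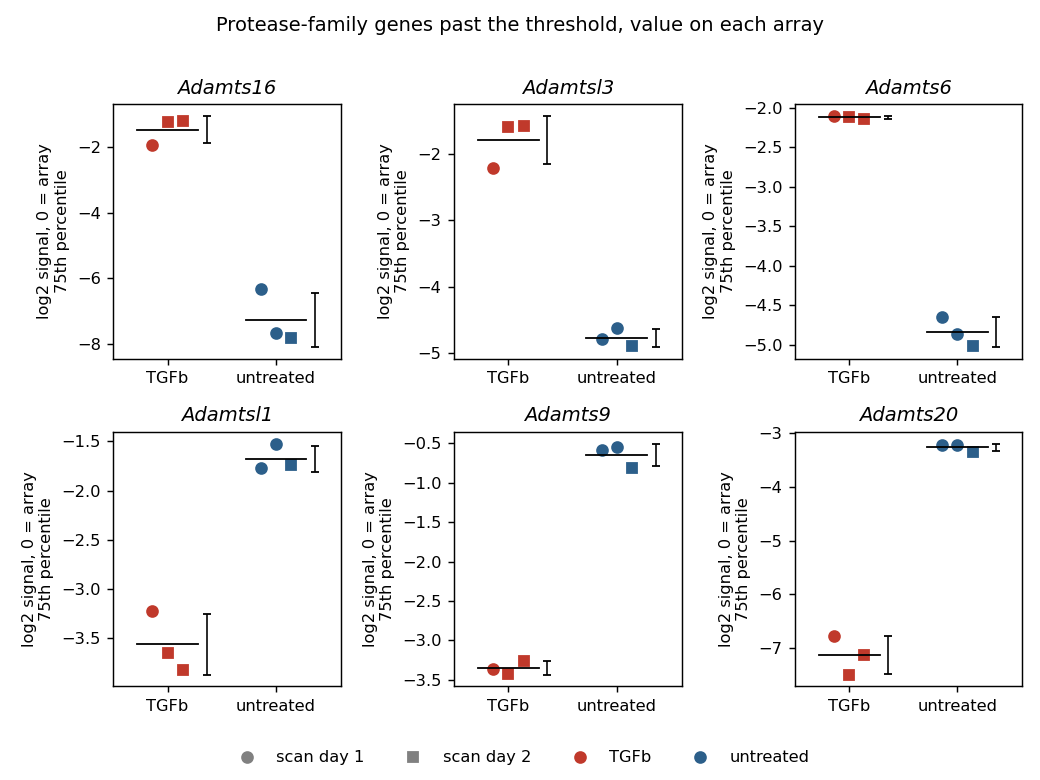
Level of the 6 ADAMTS-family genes past the threshold on each array (vertical axis, log2 signal relative to the array's 75th percentile), TGFb arrays on the left and untreated arrays on the right of each panel. Horizontal lines are group means and bars are SD (n = 3), circles are scan day 1 and squares scan day 2; the groups do not overlap in any panel. Each panel has its own vertical scale.

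All 6 genes passed in the scan-day fit (adjusted p between 0.00156 and 0.00583), with differences of 2.92 for Adamtsl3, 2.76 for Adamts6, -1.78 for Adamtsl1 and -2.67 for Adamts9. For Adamts16 and Adamts20, below background in one group, the bounds above hold for the processed signal alone, so the size depends on the processing. None of the 6 genes differed between the scan days past the threshold (day 2 minus day 1, between -0.32 and 0.22). Of the 42 protease genes 15 did, against 55.7% of all genes. A day difference widens the spread in the fit that called the 6 genes, so their small day differences follow in part from how they were called. The calls of the fit without scan day depended on single arrays. That fit called 0 protease genes without TGFb replicate 2, without TGFb replicate 3, without untreated replicate 1 or without untreated replicate 2, 2 higher and 1 lower without TGFb replicate 1, and 3 higher and 2 lower without untreated replicate 3. Over all genes, it called 0 without TGFb replicate 2, untreated replicate 1 or untreated replicate 2. Without TGFb replicate 3 it called 2 higher and 0 lower over all genes. These counts were 35 and 22 without TGFb replicate 1, and 117 and 78 without untreated replicate 3. In the 4 fits with 0 protease calls, limma gave 10, 9, 7 and 7 protease genes a p under 0.05 before adjustment, against 7.5%, 8.54%, 6.68% and 6.71% of all genes. The fit also called 0 protease genes, and 0 over all genes, with untreated replicates 1 and 2 averaged as 1 sample. There the adjusted p of the 6 genes lay between 0.113 and 0.249. Before adjustment, 7 protease genes and 6.65% of all genes had p under 0.05 there. In the scan-day fit all 6 passed with these replicates averaged (adjusted p between 0.0191 and 0.0356), and all 6 passed without each array except Adamts16 and Adamtsl1 without untreated replicate 3 (adjusted p = 0.0540 and 0.0707). When arrays were left out of the scan-day fit, the difference ranged from 2.50 to 3.34 for Adamtsl3, from 2.64 to 2.89 for Adamts6, from -1.99 to -1.57 for Adamtsl1 and from -2.80 to -2.53 for Adamts9.

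**Figure D3:**
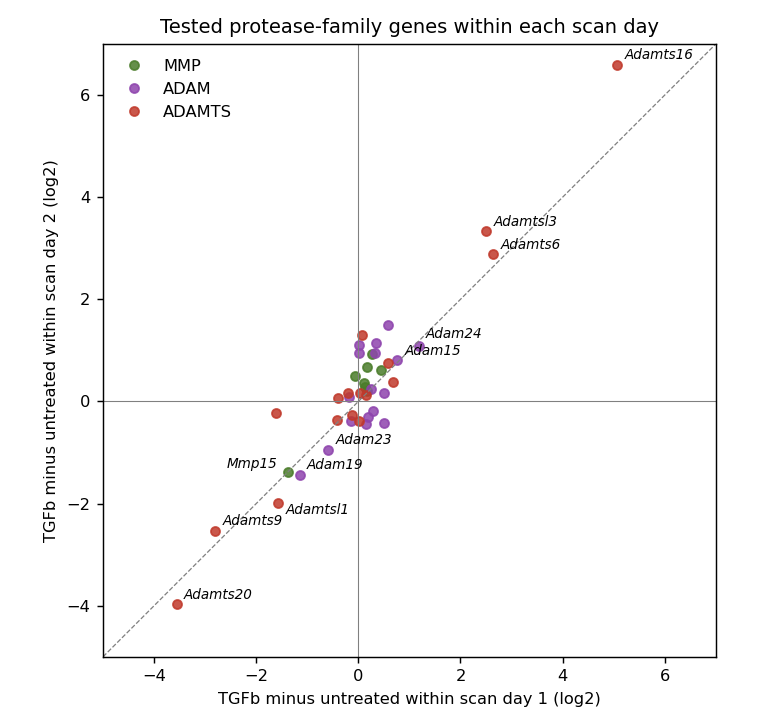
Difference of each of the 42 tested genes within scan day 1 (horizontal axis, 1 TGFb and 2 untreated arrays) and within scan day 2 (vertical axis, 2 TGFb and 1 untreated array), both TGFb minus untreated on the log2 scale, coloured by family. The dashed line marks equal differences. The named genes, those past the threshold in either fit, have the same sign on both days, which follows in part from how they were picked, and most others lie near the origin.

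The probe for Adamts16 lay at chr13:70867148-70867207 and that for Adamts6 at chr13:105284737-105284796 (build mm9, as in the array files). Those for Adamts20 and Adamts9 lay at chr15:94110452-94110511 and chr6:92723051-92723110, and those for Adamtsl1 and Adamtsl3 at chr4:86074196-86074255 and chr7:89761288-89761347. Adamts16, Adamts20 and Adamts9 are on the minus strand and the other 3 on the plus strand. The exon or untranslated region that each probe covers was not determined here.

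The promoters of the called genes are shown because these genes moved in 2 directions within one family. RefSeq promoter sequences (build GRCm38.p6) matched 48 of the 79 genes and 3 of the 6 called genes, Adamts20, Adamts9 and Adamtsl3. Each sequence is the 250 bases before the annotated start, 5′ to 3′ on the gene's strand, at chr15:94404351-94404600 (minus strand), chr6:92943535-92943784 (minus strand) and chr7:82335444-82335693 (plus strand). Capitals mark matches on either strand to the SMAD box CAGAC, the core bound by SMAD proteins that carry the TGFb signal, and to the GC box GGGCGG.
Adamts20: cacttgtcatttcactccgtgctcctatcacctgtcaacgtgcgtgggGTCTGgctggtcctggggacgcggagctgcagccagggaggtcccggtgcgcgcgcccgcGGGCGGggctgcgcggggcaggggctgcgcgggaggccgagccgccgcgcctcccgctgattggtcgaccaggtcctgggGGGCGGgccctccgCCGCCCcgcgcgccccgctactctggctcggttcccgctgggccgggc
Adamts9: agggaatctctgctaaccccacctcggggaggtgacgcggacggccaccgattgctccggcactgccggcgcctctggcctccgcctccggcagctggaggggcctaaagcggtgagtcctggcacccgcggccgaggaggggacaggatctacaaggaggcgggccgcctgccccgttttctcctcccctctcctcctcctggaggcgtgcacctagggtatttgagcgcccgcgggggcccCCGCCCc
Adamtsl3: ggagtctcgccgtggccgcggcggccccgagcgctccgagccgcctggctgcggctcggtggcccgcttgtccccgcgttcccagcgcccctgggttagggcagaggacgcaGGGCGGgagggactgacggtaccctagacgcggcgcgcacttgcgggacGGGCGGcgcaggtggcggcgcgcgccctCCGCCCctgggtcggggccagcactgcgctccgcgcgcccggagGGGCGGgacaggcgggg
The Adamts20 window held 1 SMAD box and 3 GC boxes, the Adamts9 window 1 GC box and the Adamtsl3 window 4 GC boxes, and no marked motifs overlapped. None of the 3 windows held the AP-1 motif TGANTCA or the TATA box TATAAA on either strand. Among 32851 RefSeq promoters read over the same length, 42.2% held CAGAC, 32.7% GGGCGG, 6.75% TGANTCA and 12.4% TATAAA. The G and C content of the windows was 76.4%, 71.2% and 80.0% in this order. These matches describe the letters alone.

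The remaining ADAMTS genes did not pass in either fit. The proteoglycan-cutting aggrecanase Adamts4 was at 5.08, 6.37 and 6.81 in TGFb cells, against 4.45, 4.36 and 6.21 in untreated cells. The groups overlapped, and within each the day 1 arrays were the lower ones. Its difference was 1.08 ± 0.68 (SE; 95% interval -0.59 to 2.75), or 0.53 in the scan-day fit. The other aggrecanase, Adamts5, was at -2.04, -1.50 and -2.08 in TGFb cells, against -0.32, -0.53 and -1.57 in untreated cells. One TGFb array lay just above the lowest untreated array, and the difference was -1.06 ± 0.42 (SE; 95% interval -2.08 to -0.05, adjusted p = 0.406). A second Adamts5 probe gave -0.50, and when all probes were fitted in the scan-day fit it passed (-0.95, adjusted p = 0.0295).

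Adamts1, another versican-cutting protease, differed by 0.11 (95% interval -0.92 to 1.15). The procollagen N-proteinases, which trim the amino end of fibrillar procollagens, differed by -0.05 for Adamts2 (95% interval -0.81 to 0.70) and 0.06 for Adamts14 (95% interval -0.52 to 0.65). All 3 were clear of background on every array, and their groups overlapped. Adamts7, which cuts the cartilage protein COMP, differed by 0.57 without and -0.02 in the scan-day fit, and was 1.76 higher on day 2. Adamtsl2, which binds fibrillin, did not overlap between groups (-0.11, -0.02 and 0.20 in TGFb cells, against -0.52, -0.84 and -0.66 in untreated cells), and its difference of 0.70 ± 0.25 (SE) did not pass in either fit (adjusted p = 0.356 and 0.0745). Adamts12 was below the filter, with 1 of its 2 probes above background on each of 2 TGFb arrays and on no untreated array, and Adamts15 was above it on 1 TGFb array. Adamts3, Adamts13, Adamts17, Adamts18 and Adamts19 were above background on no array.

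**Figure D4:**
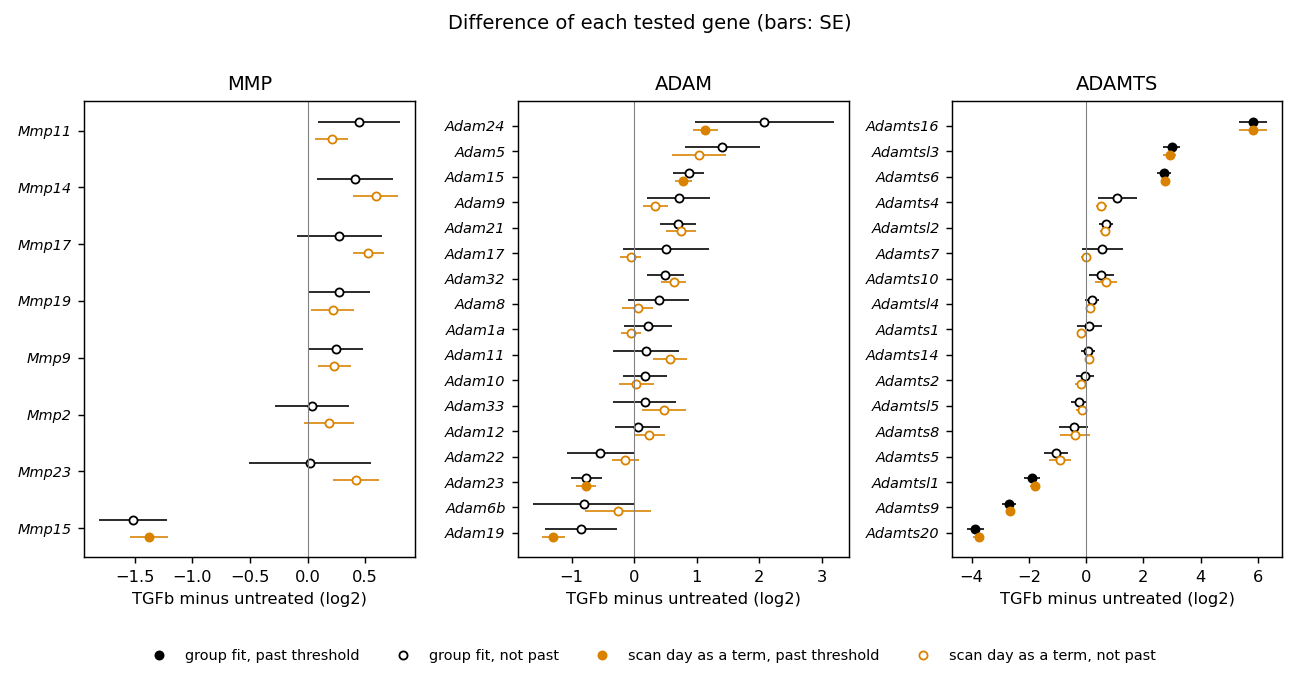
Difference of every tested gene (horizontal axis, TGFb minus untreated, log2; bars are SE) by family, with group alone in black and in the scan-day fit in orange. Filled points passed the adjusted threshold; of the 2 fits shown, MMP and ADAM points are filled in the scan-day fit alone, and each panel has its own horizontal scale.

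No MMP gene passed with group alone. The lowest p was that of Mmp15, a membrane-anchored MMP (MT2-MMP), at -1.32, -1.92 and -1.57 in TGFb cells, against 0.11, -0.01 and -0.36 in untreated cells. All TGFb arrays lay below all untreated arrays. The difference was -1.52 ± 0.29 (SE, adjusted p = 0.0864), and it passed in the scan-day fit (-1.38 ± 0.16, adjusted p = 0.00917). It was -1.37 within day 1 and -1.38 within day 2. With untreated replicates 1 and 2 averaged as 1 sample in the scan-day fit the adjusted p was 0.0585.

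The gelatinases, which cut denatured collagen and basement membrane collagen, were measured on all arrays. Mmp2 was at 1.09, 0.94 and 0.37 in TGFb cells, against 1.09, 0.74 and 0.46 in untreated cells. Mmp9 was at -1.98, -1.87 and -1.78 in TGFb cells, against -2.08, -2.09 and -2.18 in untreated cells. Mmp2 overlapped between the groups while Mmp9 did not, and the differences were 0.04 (95% interval -0.75 to 0.83) and 0.24 (95% interval -0.33 to 0.81). Mmp14, the membrane-anchored MT1-MMP that activates the precursor of Mmp2, was at 1.36, 1.11 and 1.20 in TGFb cells, against 1.11, 1.08 and 0.23 in untreated cells. The TGFb values overlapped those of the untreated replicates from day 1, and the difference was 0.41 (95% interval -0.39 to 1.22), or 0.59 in the scan-day fit (adjusted p = 0.128).

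Mmp11, or stromelysin-3, differed by 0.44 (95% interval -0.42 to 1.31), and its second probe by -0.61, so its probes disagreed in sign and neither passed. Mmp19 differed by 0.27, -0.07 within day 1 and 0.50 within day 2. Mmp17 and Mmp23, both membrane-linked, differed by 0.28 and 0.02, and day 2 minus day 1 was -0.76 and -1.20. The collagenases Mmp1a, Mmp1b, Mmp8 and Mmp13 were not tested, nor were Mmp3, Mmp10 and Mmp7 of the stromelysins and matrilysin or the macrophage elastase Mmp12. Of the 15 MMP genes not tested, Mmp8 and Mmp24 were above background on 1 TGFb array each and the others on no array, so a change in them was not detectable here.

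Among the ADAMs that carry an active protease, Adam19 and Adam15 passed in the scan-day fit and not with group alone. Adam19, or meltrin beta, was at 3.61, 4.58 and 5.03 in TGFb cells, against 4.72, 4.81 and 6.24 in untreated cells. The groups overlapped, but on each scan day every TGFb array lay below every untreated array. Its difference was -0.85 ± 0.57 (SE, adjusted p = 0.666) with group alone and -1.29 ± 0.19 in the scan-day fit (adjusted p = 0.0161), and the gene was 1.33 higher on day 2. Adam15, a membrane protease, was at 4.35, 4.63 and 4.63 in TGFb cells, against 3.66, 3.52 and 3.83 in untreated cells. All TGFb arrays were higher, by 0.87 ± 0.25 (SE, adjusted p = 0.229), or 0.78 ± 0.14 in the scan-day fit (adjusted p = 0.0263).

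The major sheddases, Adam10 and Adam17, did not pass in either fit. Adam10 was at 3.35, 3.53 and 3.07 in TGFb cells, against 2.76, 2.95 and 3.72 in untreated cells. Its difference was 0.17 (95% interval -0.68 to 1.02), with 0.50 within day 1 and -0.43 within day 2, so the scan days disagreed in sign. Adam17 was at -1.76, -0.33 and -0.29 in TGFb cells, against -1.89, -2.00 and -0.004 in untreated cells. Its day 1 arrays were all lower than its day 2 arrays, by 1.70, and the difference was 0.51 with group alone and -0.06 in the scan-day fit. A second Adam17 probe gave 0.51 and 0.04.

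Adam12, or meltrin alpha, known for its part in myoblast fusion, was at -2.59, -3.55 and -2.75 in TGFb cells, against -2.89, -2.78 and -3.39 in untreated cells. The groups overlapped, and the difference was 0.06 (95% interval -0.83 to 0.94). A dimmer Adam12 probe, above background on 1 TGFb and 3 untreated arrays, gave -1.01 without passing, and the other Adam12 probe was at background. Adam9, or meltrin gamma, differed by 0.71 and Adam8 by 0.39 with group alone, and by 0.34 and 0.05 in the scan-day fit. Both were higher on day 2, by 1.13 and 1.02.

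Adam23, an ADAM without the catalytic zinc site, was at -0.61, -0.68 and -0.85 in TGFb cells, against -0.02, -0.02 and 0.18 in untreated cells. The groups did not overlap. The difference was -0.76 ± 0.24 (SE, adjusted p = 0.278), and -0.77 in the scan-day fit (adjusted p = 0.0422). Its other probes gave 0.25 and -0.01, so the lower value was seen in 1 of 3 probes, and that probe had an adjusted p of 0.0522 when all probes were fitted with the scan-day term. Adam11 and Adam22, also without this site, differed by 0.19 and -0.54 and did not pass in either fit.

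Adam24, a testis-type ADAM, passed in the scan-day fit and not with group alone, and was close to background. Its level was -6.61, -3.67 and -3.99 in TGFb cells, against -7.56, -8.02 and -4.93 in untreated cells. It was well above background on 2 TGFb arrays and 1 untreated array, all scanned on day 2, and was 2.82 higher on that day. It was not well above background on the 3 day 1 arrays, so the difference in the scan-day fit (1.14 ± 0.20, SE, adjusted p = 0.0267) has no measured size within day 1. With group alone after normexp correction it was 0.62 and did not pass (adjusted p = 0.490). Adam5 differed by 1.41 and Adam21 by 0.70 with group alone, and neither passed in either fit. The second Adam5 probe gave -0.25. Of the 15 ADAM genes not tested, 10 were above background on no array and the other 5 on 1 or 2 arrays.

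In the scan-day fit, the calls of the 5 genes Mmp15, Adam15, Adam19, Adam23 and Adam24 depended on single arrays. Each missed the threshold without TGFb replicate 1 and without any 1 of the 3 untreated replicates (adjusted p between 0.0598 and 0.256). Over all genes, these fits called 147 to 368 higher and 183 to 351 lower, against 1011 and 1231 with all arrays. Without TGFb replicate 2, Adam15, Adam23 and Adam24 missed the threshold (adjusted p = 0.0501, 0.0752 and 0.0611). When arrays were left out, the difference ranged between -1.45 and -1.30 for Mmp15 and between -1.44 and -1.15 for Adam19. With untreated replicates 1 and 2 averaged as 1 sample in that fit, none of the 5 passed (adjusted p between 0.0585 and 0.162).

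**Figure D5:**
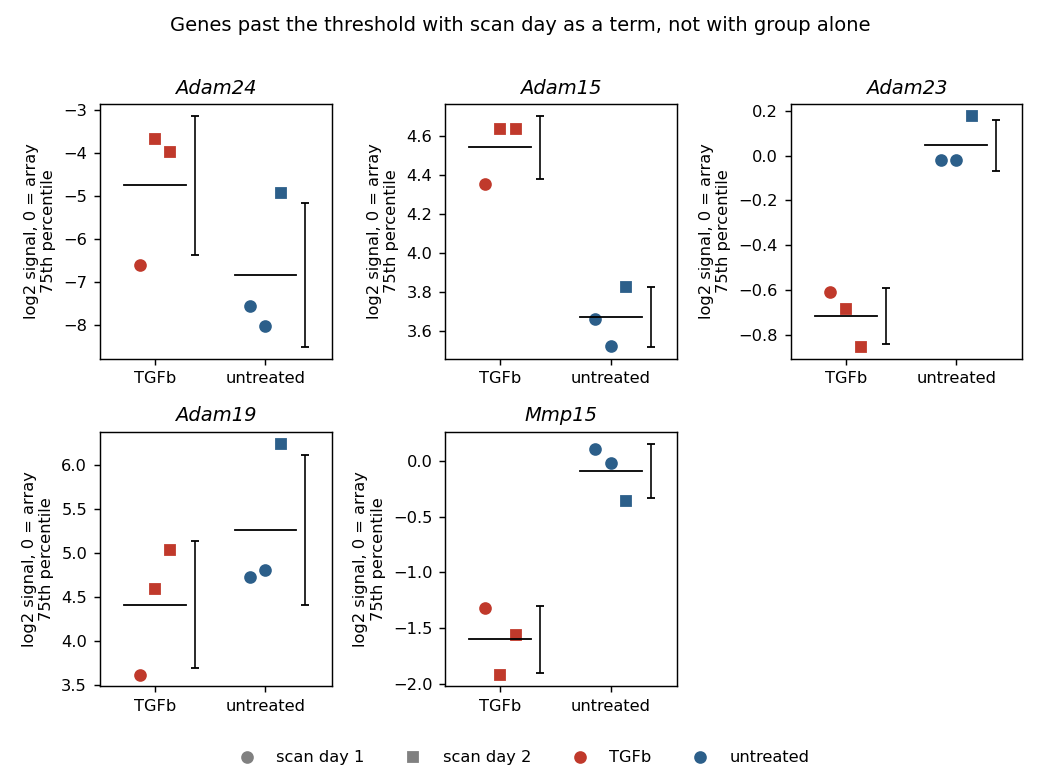
Level, on each array, of the 5 genes that passed in the scan-day fit and not with group alone (vertical axis, log2 signal relative to the array's 75th percentile), TGFb arrays left and untreated arrays right. Lines are group means and bars SD (n = 3), circles are scan day 1 and squares scan day 2. On each day the TGFb and untreated arrays of a gene are separate (for Adam24 not well above background on day 1), while over both days Adam24 and Adam19 overlap. The separation within days follows in part from picking the genes by the scan-day fit, which compares the groups within days. Each panel has its own vertical scale.

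Genes that work with these proteases were read from 3 lists. Over all genes tested, 0.697% rose and 0.706% fell with group alone, and 4.60% rose and 5.61% fell in the scan-day fit. With untreated replicates 1 and 2 averaged as 1 sample, 0 of all genes passed with group alone, so no gene of these lists did. The same held without TGFb replicate 2, without untreated replicate 1 or without untreated replicate 2. The scan-day calls of the list genes are not given with the replicates averaged, where 309 of all genes rose and 342 fell. Of 12 tested inhibitors and activators of MMPs, 1 rose and 0 fell with group alone, and 3 rose and 0 fell in the scan-day fit. Their median difference was 0.73 with group alone and 0.49 in the scan-day fit. Without adjustment, limma gave p under 0.05 for 4 of them with group alone, against 11.5% of all genes. Timp3, an inhibitor bound to the matrix that acts on MMPs and on several ADAMs and ADAMTS enzymes, was at 5.07, 5.55 and 5.55 in TGFb cells, against 0.73, 0.78 and 0.98 in untreated cells. The groups were far apart, and the rise was 4.56 ± 0.27 (SE, adjusted p = 0.00817). Timp1, another inhibitor of MMPs, and the plasminogen activator Plat rose in the scan-day fit, by 2.38 and 0.72, without passing with group alone.

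Of 18 tested substrates and partners of ADAMTS proteins, 1 rose and 0 fell with group alone, and 7 rose and 3 fell in the scan-day fit. Over all genes, 1.40% changed in either direction with group alone and 10.2% in the scan-day fit. The median difference of the list was 0.59 with group alone and 0.63 in the scan-day fit. Without adjustment, limma gave p under 0.05 for 9 of the 18 with group alone, against 11.5% of all genes. The gene that rose in both was Thbs1, the matrix protein thrombospondin-1 (3.51 ± 0.46, SE, adjusted p = 0.0278). In the scan-day fit the procollagen genes Col1a1, Col1a2 and Col2a1 rose by 1.80, 1.04 and 2.83, and Fn1, Bmp1 and Comp by 1.42, 1.72 and 1.21. The procollagen genes Col3a1 and Col5a1 differed by -0.03 and 0.48 and did not pass in that fit. Col2a1 was well above background on 2 of the 3 untreated arrays. Vwf, the small proteoglycan Dcn and the microfibril gene Fbn2 fell by 1.30, 2.57 and 1.29 on the log2 scale in that fit. Vcan, the versican cut by Adamts9 and Adamts20, was at 2.82, 2.43 and 2.14 in TGFb cells, against 1.46, 1.78 and 1.99 in untreated cells. All TGFb arrays were higher, but the difference of 0.72 ± 0.31 (SE, adjusted p = 0.456) did not pass, nor did it in the scan-day fit (adjusted p = 0.146).

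Of 22 tested genes for ADAM trafficking or for proteins that ADAMs shed, 0 passed with group alone, and 3 rose and 2 fell in the scan-day fit. Over all genes, 1.40% changed in either direction with group alone and 10.2% in the scan-day fit. The median difference of these 22 genes was 0.47 with group alone and 0.33 in the scan-day fit. Without adjustment, limma gave p under 0.05 for 8 of them with group alone, against 11.5% of all genes. Those that rose in the second fit were the growth factor ligands Hbegf (2.07) and Ereg (1.05) and the Notch ligand Jag1 (1.63), and those that fell were Tspan15 (-1.63) and Tspan33 (-0.96), tetraspanins that partner with Adam10.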

How the data were processed

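Per the file headers, the deposited intensity of each spot was read out by the authors in Agilent Feature Extraction 10.7.3.1 with background and spatial trend subtracted, and the deposited flags (0 or 1) mark spots well above background, saturated or outlying. The authors also deposited a table of log2 values whose normalization no source used here gives; its column medians were 7.11 to 7.12, it rose with the scanner signal (r of 0.992 to 0.993 with its own array) and served as an alternative.

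Outlier and control spots were left out, log2 processed signal was taken minus each array's 75th percentile, and spots of a probe were averaged. A gene was represented by its brightest probe among those well above background on at least 3 of 6 arrays. Of 55681 probes, 26300 matched a RefSeq accession, which changed 2839 names and none of the protease genes. Groups were compared with limma 3.58.1 (R 4.3.3), TGFb minus untreated, adjusted over all genes. For a gene below background in one group, the bound sets the bright group's mean against the dim group's mean, after raising each dim array to its lowest signal well above background where the probe was under it. The members, lists, tests and scan-day term were chosen with earlier results of these data known, and 1 gene was taken out of the list of MMP inhibitors and activators afterwards and is not reported here. Genes were named if they passed in either fit, if they were above background in one group only, if they had the smallest p or highest level in their family, or if they were well-known members; other genes named with values, such as Adamts7, Adamtsl2, Mmp17, Mmp23, Adam11, Adam22 and Vcan, were added after their values were seen. The labels call the samples independent experiments; if they were not, p-values measure only technical spread. Deviations from the group means correlated at 0.81, -0.72 and 0.69 between same-numbered arrays of the 2 groups. Between TGFb and untreated arrays of any number, r was 0.69 to 0.86 within a scan day and -0.88 to -0.62 between days. The sign followed scan day, so these values cannot tell whether the numbers pair the arrays. The fit was tested on simulated data over 21837 genes, with 50 changed at each size: it recovered 0%, 20%, 50% and 56% of changes of 1, 2, 3 and 4 on the log2 scale, with 3 false calls. Alternatives were scan day, slide, replicate number, background correction, normalization, the authors' table, the filter, the probe rule and each array left out; averaging untreated replicates 1 and 2 was chosen after seeing the data.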

Additional observations from a re-analysis of the deposited data

How the results depend on the processing

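The number of protease genes past the threshold, 3 higher and 3 lower after TGFb, depended on how the spread between arrays was modelled, while no named gene that passed in any fit changed sign. With scan day as a term 5 were higher and 6 lower, and with slide as a random block 6 and 6. With the replicate number as a block 0 were higher and 0 lower, and 12 protease genes and 13.4% of all genes had an unadjusted p under 0.05 in limma. Whether the numbers pair the arrays could not be told. After normexp correction 2 were higher and 1 lower, and in the authors' deposited table they numbered 4 and 6. Leaving out each array in turn gave 0 to 3 higher and 0 to 2 lower, and with scan day as a term 2 to 6 higher and 2 to 6 lower; such fits have fewer samples. With untreated replicates 1 and 2 averaged, chosen after seeing the data, 0 were higher and 0 lower, and 3 and 3 with scan day as a term. Quantile normalization, no filter and the mean of a gene's probes each gave 3 and 3. Requiring all 6 arrays above background gave 2 and 2, since it left out Adamts16 and Adamts20. Over all genes, the count was 153 higher and 155 lower with group alone, 1011 and 1231 with scan day, 2084 and 2230 with slide, 2 and 0 with the replicate block, and 1575 and 1710 in the authors' deposited table. The cause of these changes was otherwise not tested. Genes near background, such as Adamts16, Adamts20 and Adam24, moved most with background correction, and changes in the 37 untested genes were not detectable. Adamts6 and Adamtsl3, close to background in untreated cells, also had smaller differences after that correction.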
